A study of Mus musculus with 5 samples.

Results

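Single-cell libraries of mouse salivary gland organoids held 5862 cell barcodes, of 59241 in all, in which more than 5% of the unique molecular identifiers (UMIs, each a tag for 1 captured RNA molecule) came from the mitochondrial genome. These high-mt barcodes were chosen by that measured value alone, the summed share of the 13 genes whose symbols begin with mt-. They were described against the reference barcodes of the same library, which had an mt- share of at most 5% and a share of at least 1% for Malat1, a long non-coding RNA kept in the nucleus, and which numbered 14240. Since the mt- and Malat1 shares set both groups, every difference below is a description of them. A filter on this mt- share is part of the quality control in the study's methods, so these are barcodes that such a filter removes. The methods also set a lower limit on feature counts, which was not applied here, so the reference barcodes are not the cells that the study kept.

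The mitochondrial genome encodes subunits of respiratory chain complexes I, III and IV and of ATP synthase, and its transcripts stay inside the organelle. The remaining subunits of those complexes, and all proteins of cytosolic and mitochondrial ribosomes, are encoded in the nucleus, and most of their mRNA is in the cytosol. In droplet sequencing a high mt- share is widely used as a sign of a damaged cell, because a leaking cell can lose cytosolic RNA while organelles and the nucleus keep theirs, although cells that are rich in mitochondria have a high share too.

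The organoids were grown from submandibular glands of C57BL/6 mice, an inbred strain, all female by the study's methods. Each library came from 4 pooled animals, aged 8 to 12 weeks where the label gives an age (it gives none for day 11). Groups of 1 library each were an untreated control collected at day 7, organoids given 7 Gy of photon or of proton radiation at day 5 and collected at day 7, and an untreated control collected at day 11. Per library, 45000 cells negative for propidium iodide, a dye that enters cells with a broken membrane, were sorted before the 3′ droplet assay. The day 11 file header names another software version, and animals and run may differ as well, so day, animals, run and software cannot be told apart. With 1 library per group no comparison between groups has a replicate check and no test was made. Intervals are 95% and cover counting error only.

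Library totals were 16908611, 30957157, 29509628 and 40166701 UMIs in the control, photon and proton libraries of day 7 and the control of day 11, in that order, which is kept below wherever 4 values stand together. No barcode had fewer than 500 UMIs. Any pair of libraries shared 33 to 98 barcode sequences, at most 0.559% of either library, and 1 of these was a high-mt barcode in both libraries. In day 7 most barcodes had little Malat1: 5824, 16693 and 16504 barcodes had an mt- share of at most 5% and a Malat1 share under 1%, against 118 at day 11. Sums over known markers of other cell types were small. The 17 immune genes summed to 8, 93, 66 and 37 UMIs over all high-mt barcodes and the 9 endothelial genes to 11, 24, 18 and 28. The 10 fibroblast genes summed to 0, 1, 3 and 45 UMIs, and the 6 erythroid genes to 0, 0, 0 and 19.

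High-mt barcodes made up 3.90% of the control day 7 library (279 of 7151, exact binomial interval 3.46 to 4.38), 4.72% of the photon library (905 of 19189, 4.42 to 5.03) and 4.03% of the proton library (751 of 18635, 3.75 to 4.32). At day 11 they made up 27.5% (3927 of 14266, 26.8 to 28.3). The order of the libraries was another once barcodes with little Malat1 were set aside: where Malat1 made up 1% or more of a barcode, the high-mt share was 20.8%, 35.8%, 34.5% and 27.7%. In the dissociated gland tissue of the same series, 1939 of 13547 barcodes (14.3%) passed the same threshold, of which 1407 had fewer than 200 genes. Of the 384 tissue barcodes in which Malat1 made up 1% or more, 204 (53.1%) did. Median mt- shares of the high-mt barcodes were 7.59%, 7.80%, 8.16% and 9.40%, with maxima of 27.4%, 30.5%, 30.8% and 32.2%. Those of the reference barcodes were 1.38%, 1.92%, 1.77% and 2.64%. Above 10% lay 67, 231, 220 and 1601 barcodes and above 20% lay 4, 9, 12 and 7. Just under the threshold, between 4 and 5% and with Malat1 of at least 1%, were 81, 200, 155 and 611 barcodes, and between 5 and 6% were 67, 164, 138 and 335. The rule set no Malat1 level for the high-mt barcodes, yet only 3, 17, 24 and 6 of them had a Malat1 share under 1%.

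High-mt barcodes had fewer UMIs. Their median was 1725, 1987, 2142 and 866 UMIs against 5889.5, 4387, 5343 and 3075 in the reference, and 804, 898, 921 and 598 genes against 1645.5, 1384, 1569 and 1610. Of the high-mt barcodes, 99.6%, 96.7%, 97.7% and 96.4% had fewer UMIs than the median reference barcode. Thinned to 500 UMIs from outside the mitochondrial genome, they showed slightly more genes than the reference, with 330, 324, 317 and 399 against 301, 303, 300 and 387.

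The difference was uneven between kinds of RNA. Mean mt- UMIs per barcode were 153, 185 and 203 in the high-mt barcodes of day 7 against 92.5, 99.5 and 108 in the reference, or 1.65, 1.86 and 1.88 times as many. At day 11 they were 99.0 against 94.3, only 1.05 times as many. Malat1 was close to the reference per barcode as well, at 259, 307, 397 and 93.7 UMIs against 336, 372, 458 and 114. Transcripts of cytosolic ribosomal proteins fell furthest behind, at 330, 401, 383 and 45.3 UMIs per high-mt barcode against 2147, 1607, 1723 and 611. All UMIs outside the mitochondrial genome were lower by 1.95, 1.43, 1.49 and 1.78 on the log2 scale.

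**Figure D1:**
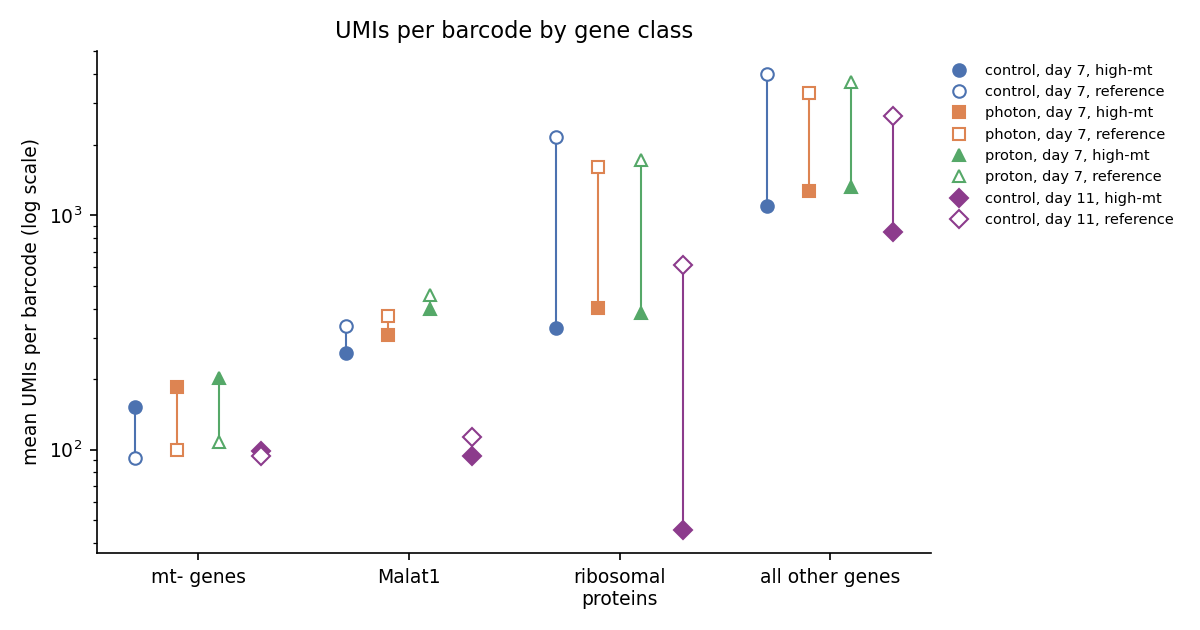
Mean UMIs per barcode (y axis, log scale) in high-mt barcodes (filled) and reference barcodes (open) of each organoid library, for mt- genes, Malat1, ribosomal proteins and all other genes (x axis). Filled and open points lie near each other for mt- genes and Malat1, and furthest apart for ribosomal proteins, down to 45.3 against 611 UMIs at day 11.

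The make-up of the mitochondrial transcripts, which the rule did not use, was nearly the same in both kinds of barcode. mt-Co1, a catalytic subunit of complex IV, gave 30.6%, 31.5%, 31.8% and 27.1% of mt- UMIs in high-mt barcodes and 32.2%, 31.3%, 31.8% and 28.8% in the reference. mt-Cytb, the mitochondrially encoded subunit of complex III, gave 12.0% against 12.8% in the control of day 7 and 14.0% against 12.7% at day 11. The shares of single mt- genes differed by between −0.15 and 0.24 on the log2 scale in the 3 libraries of day 7, the extremes being mt-Nd3, a complex I subunit, in the photon and in the control library. At day 11 they differed by between −0.16 for mt-Atp8 and 0.49 for mt-Nd6. mt-Nd6, the complex I subunit encoded on the strand opposite to the other 12 genes (M:13552-14070 in GRCm39), gave 0.341% of mt- UMIs in high-mt barcodes (1326 UMIs) and 0.243% in the reference (2342 UMIs). Counted per barcode, every mt- gene was higher by 0.63 to 1.02 (log2) at day 7, and between −0.09 and 0.56 at day 11.

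Across the range of mt- share, depth dropped before the threshold in the libraries of day 7 and at it in that of day 11. Among barcodes with Malat1 of at least 1%, median UMIs in the control of day 7 were 7240.5 up to an mt- share of 1%, 6516.5 from 1 to 2.5%, 1868.5 from 2.5 to 5%, 1775 from 5 to 7.5% and also 1775 from 7.5 to 10%. The photon and proton libraries fell at the same place, from 6104 to 2115 and from 6506 to 2334 between the 1 to 2.5% and the 2.5 to 5% classes. At day 11 the median stayed at 2849, 2977 and 3149.5 up to 5% and was 928.5 and 850 in the next 2 classes. Ribosomal protein transcripts fell more evenly at day 7, below the threshold and across it. They took 26.6%, 25.8% and 24.5% of non-mitochondrial UMIs from 2.5 to 5% in the libraries of day 7 and 21.0%, 21.1% and 19.0% from 5 to 7.5%, against 35.2%, 32.1% and 31.4% up to 1%. At day 11 they went from 17.6% in the class just below the threshold to 8.26% from 5 to 7.5% and 2.70% from 7.5 to 10%. The nuclear RNA Neat1 ran the other way at day 11, from 1122 CPM (counts scaled to a common total of non-mitochondrial UMIs) below the threshold to 3190, 3467 and 2947 in the 3 classes from 5 to 20%.

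**Figure D2:**
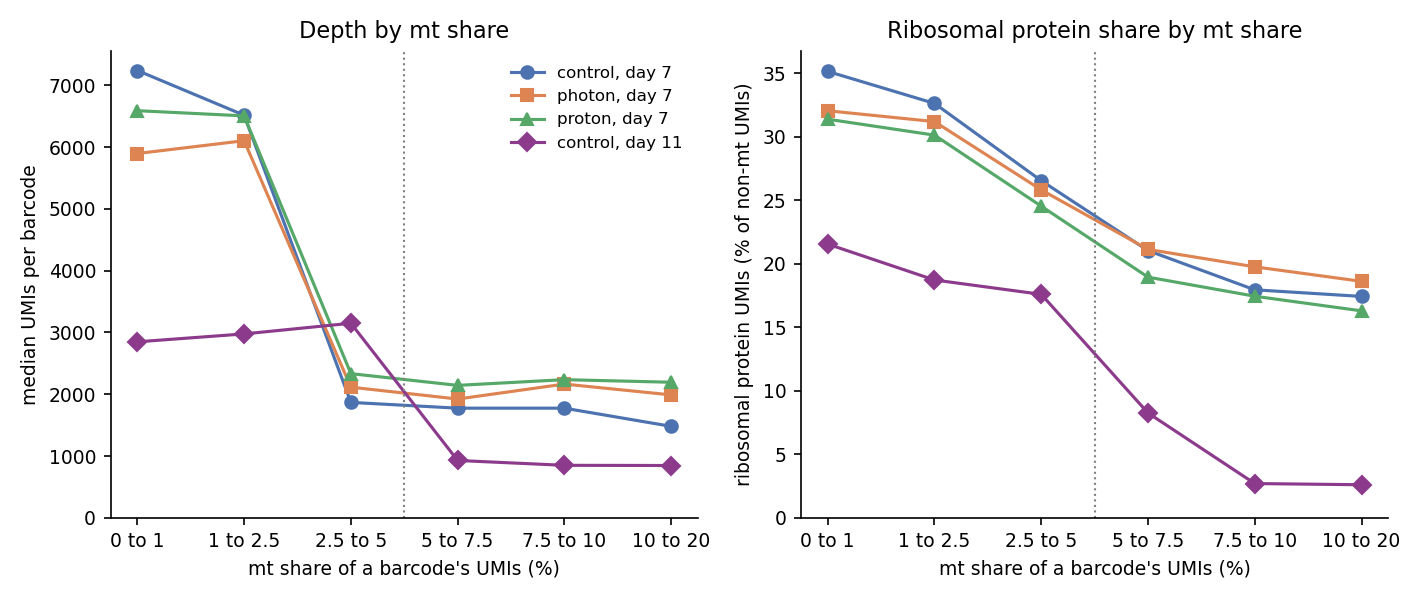
Median UMIs per barcode (left) and ribosomal protein transcripts as a percent of non-mitochondrial UMIs (right) in classes of mt- share (x axis, percent), for barcodes in which Malat1 made up 1% or more, with 1 line per organoid library and a dotted line at 5%. Classes of fewer than 20 barcodes are left out. Depth drops between 2.5 and 5% in the libraries of day 7 and above 5% at day 11, where the ribosomal share goes from 17.6% to 8.26%.

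Gene by gene, levels were compared as CPM of non-mitochondrial UMIs summed over the barcodes of a kind, with a pseudocount of 1 CPM, for the 5859 genes with a mean of at least 20 CPM over the 8 sums. A gene was counted when it differed at least 2-fold in the same direction in each of the 4 libraries. In all, 520 genes (8.88%) were higher in high-mt barcodes and 7 (0.119%) were lower. Of the 520, 364 would have passed the filter on their reference sums alone, a setting added after seeing the data, and the others passed through the sums where they were high. Library by library, 1508 (25.7%), 1014 (17.3%), 1143 (19.5%) and 1304 genes (22.3%) were at least 2-fold higher. Lower genes were few at day 7, with 188 (3.21%), 34 (0.58%) and 61 (1.04%), and many at day 11, with 1200 (20.5%). The sign was the same in all 4 libraries for 4174 genes (71.2%), with 2598 higher (44.3%) and 1576 lower (26.9%). The median gene was higher by 0.33, 0.22, 0.23 and 0.21 (log2), so a list is read against those values. Over the 5139 genes that passed on their reference sums alone, the median was 0.19, 0.11, 0.09 and 0.00. The balance of higher and lower genes depends on the scaling: 135 higher and 176 lower genes with median-of-ratios factors (43.4% higher) and 120 and 300 with TMM factors (28.6% higher), against 98.7% here.

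Depth moved with the choice of barcodes, so both kinds were also restricted to the 10th to 90th percentile of the non-mitochondrial UMIs of the high-mt barcodes, a setting added after seeing the data. This left 223, 723, 601 and 3141 high-mt barcodes with a median of 1574, 1818, 1952 and 780 such UMIs, and 220, 561, 374 and 231 reference barcodes with 1620, 1808, 1884.5 and 946. The 520 higher genes became 30, of which 20 were among the 520, and the 7 lower genes became 1. In these barcodes of like depth the median Malat1 share was 13.3%, 13.7% and 17.4% in the high-mt and 13.2%, 14.7% and 17.8% in the reference barcodes at day 7, and 9.24% against 4.93% at day 11. Of the 30, 20 rested on a sum of 3 UMIs or fewer in at least 1 library, as did the 1 lower gene, and 10 did not. These 10 included the laminin gene Lamb1, the fatty acid synthesis gene Acaca, Nav2 and Ptprz1, named here after their values were seen.

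Transcripts kept in the nucleus were higher. Xist, the RNA that coats the inactive X chromosome (X:102503972-102537573, minus strand, GRCm39), was at 2116, 1781, 1701 and 2011 CPM in high-mt barcodes (994, 3180, 2678 and 7780 UMIs) against 523, 598, 579 and 637 in the reference. The difference was 2.02 (1.92 to 2.12), 1.57 (1.51 to 1.64), 1.55 (1.49 to 1.62) and 1.66 (1.62 to 1.70) on the log2 scale. Neat1, the scaffold of nuclear paraspeckles, was at 3402, 2794, 2637 and 3192 CPM against 1065, 1043, 924 and 1132. Kcnq1ot1, an imprinted non-coding RNA, was at 462, 309, 285 and 408 CPM against 79.5, 98.5, 74.0 and 108. Xist was at 3.56, 3.51, 3.57 and 1.98 UMIs per high-mt barcode and 3.40, 3.17, 3.40 and 2.15 per reference barcode. Neat1 was at 5.73, 5.51, 5.53 and 3.15 UMIs per high-mt barcode and 6.93, 5.54, 5.43 and 3.83 per reference barcode. For Xist and Neat1 the number per barcode was thus near the reference while the share was higher. Kcnq1ot1 was at 0.778, 0.609, 0.597 and 0.402 UMIs per high-mt barcode and 0.517, 0.522, 0.435 and 0.365 per reference barcode, above the reference on both scales. Of the 14 nuclear-retained transcripts listed, 6 passed the filter and 4 were at least 2-fold higher in each library, against 8.88% of all genes, namely Tsix, Xist, Kcnq1ot1 and Neat1. Over the 6 that passed the filter, the median was 1.85, 1.5, 1.53 and 1.58 above the reference, and 0.52, 0.28, 0.51 and 0.86 at matched depth.

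Tsix, the antisense partner of Xist (X:102475123-102533557, plus strand), led the genes ranked by the lowest of their 4 ratios, at 3.12, 2.06, 2.23 and 2.53 from 138, 306, 164 and 324 UMIs in high-mt barcodes. It had 0.495, 0.338, 0.218 and 0.0825 UMIs per high-mt barcode against 0.215, 0.214, 0.125 and 0.0461 in the reference. At matched depth its ratios were 0.77, 0.24, 0.23 and 1.32. The use of strand in the counting was not given in the sources used here, so Tsix and Xist reads cannot be told apart where both genes overlap, and the same holds for Kcnq1ot1 inside Kcnq1. Gm20594, at 2.74, 2.01, 2.53 and 1.99 from 23, 65, 113 and 158 UMIs, lies on chromosome 6 at 79794899-79795347 and is annotated as Mtrnr2l7. Its transcript of 449 bases matched M:1738-2170, in the mitochondrial ribosomal RNA gene mt-Rnr2, with 88.4% identity, so its reads may in part be mitochondrial and its level is uncertain. The others that this ranking placed first were Rbm4b, Sugp2, AC149090.1, Atg9b, Gm42726, Lama5, Kansl1l, Paxbp1 and Hps3. Of the 12 genes placed first, 6 (Gm20594, Rbm4b, Sugp2, Atg9b, Gm42726 and Hps3) passed the filter only through their high-mt sums. Rbm4b, which encodes an RNA-binding protein, stood at 2.27, 1.98, 2.10 and 1.85, and at 1.56, 0.65, 1.24 and 0.81 at matched depth. Paxbp1 stood at 2.33, 1.84, 1.89 and 1.56, and at 0.50, 0.33, 0.43 and 0.91 at matched depth. Rbm4b, Sugp2, Atg9b, Gm42726 and Kansl1l overlap other annotated genes.

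Long genes were higher and short genes lower. Split into quintiles by gene length, with median lengths of 5.82, 16.1, 31.4, 60.5 and 145 kb, genes had median log2 ratios of −0.37, −0.02, 0.32, 0.73 and 1.06 in the control of day 7 and of −1.24, −0.42, 0.14, 0.72 and 1.13 at day 11. Photon ran from −0.33 to 0.84 and proton from −0.36 to 0.86 over the same quintiles. Of the 520 higher genes, 286 were in the longest quintile, where they made up 24.4% of the genes, and 10 (0.855%) in the shortest, while the 7 lower genes were all in the 2 shortest quintiles. Among genes that passed the filter on their reference sums alone, 226 of 966 (23.4%) in the longest and 4 of 1132 (0.353%) in the shortest quintile were higher. The difference of the longest from the shortest quintile was 1.43, 1.17, 1.22 and 2.37 (log2), and 1.41, 1.13, 1.22 and 2.38 over those genes. With no filter on low genes it was 0.00, 0.24, 0.26 and 0.89 over 20964 genes, so it was lost in the control of day 7, where the median of all these genes was 0 as well. The rank correlation with gene length across 5848 genes, which share the same libraries and depth, was 0.51, 0.55, 0.54 and 0.74. That with transcript length was 0.58, 0.61, 0.60 and 0.63. The software version in the day 11 header counts intronic reads by default and that of day 7 does not, the setting used is not given, and its part in the values of long and nuclear-retained genes was not tested. At matched depth the trend was smaller at day 7, from −0.09 to 0.47 in the control, −0.06 to 0.47 with photon and −0.12 to 0.53 with proton. At day 11 it ran from −1.19 to 0.67. Among the higher genes were 13 of 40 long non-coding RNAs (32.5%) and 504 of 5807 protein-coding genes (8.68%), or 9 of 29 (31.0%) and 352 of 5098 (6.90%) of those that passed on their reference sums alone. The 517 higher genes with a length had a median of 21 exons and 100 kb, against 9 exons and 31.4 kb for all genes.

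**Figure D3:**
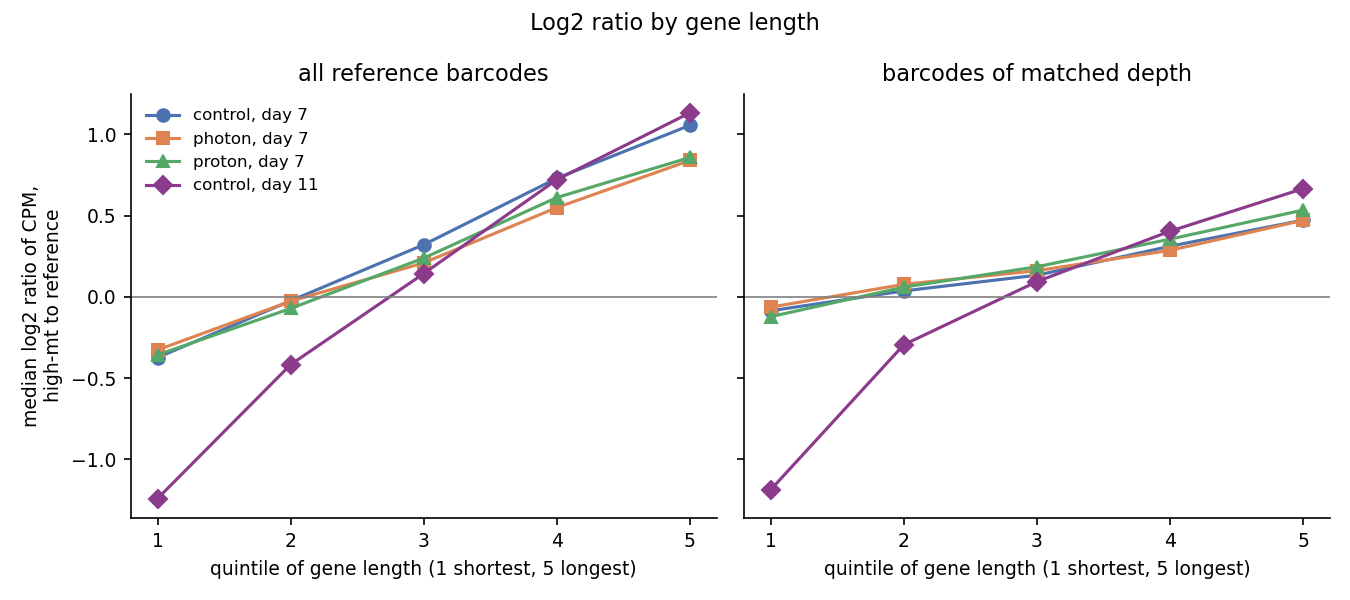
Median log2 ratio of high-mt to reference barcodes (y axis) in quintiles of genes by gene length (x axis, 1 shortest to 5 longest), with 1 line per organoid library, for all reference barcodes (left) and for barcodes of matched depth (right). On the left each line climbs from below 0 to between 0.84 and 1.13. On the right the climb is smaller, ending between 0.47 and 0.67.

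Transcripts of cytosolic ribosomal proteins were lower. In high-mt barcodes they took 19.6%, 20.3%, 18.3% and 4.60% of non-mitochondrial UMIs, against 33.0%, 30.3%, 29.3% and 18.1% in the reference. Of 81 measured genes (85 in the list, from which the ribosomal protein S6 kinases that its symbol rule also took were left out after they were seen), 79 were below the reference in every library, against 26.9% of all genes. The median was −0.72, −0.54, −0.64 and −1.96. A 2-fold lower level was reached by 5, 0, 2 and 80 of them, against 3.21%, 0.58%, 1.04% and 20.5% of all genes. Rplp0, a protein of the large subunit's stalk, was at 3976, 4812, 4566 and 653 CPM against 7306, 6935, 7516 and 2767. At matched depth the median was −0.33, −0.27 and −0.39 at day 7 and −2.16 at day 11, so the day 11 difference was as large between barcodes of like depth. Against the median of all genes the list stood at −1.05, −0.76, −0.88 and −2.17.

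Nuclear genes of the respiratory chain went with the ribosomal proteins and not with the mitochondrial transcripts. The 37 nuclear subunits of complex I had a median of −0.51, −0.36, −0.39 and −1.55, with 33 below the reference in all 4 libraries, against 26.9% of all genes, and 32 at least 2-fold lower at day 11, against 20.5% of all genes. The 24 genes of complexes II to IV had −0.55, −0.40, −0.45 and −1.48, with 20 at least 2-fold lower at day 11. The 14 nuclear genes of ATP synthase had −0.48, −0.32, −0.41 and −1.55, with 13 at least 2-fold lower at day 11. Cox4i1, a nuclear subunit of complex IV, was at 828, 901, 934 and 432 CPM against 1325, 1295, 1394 and 1291. In contrast, the 3 mitochondrially encoded subunits of the same complex took 4.89%, 5.19%, 5.41% and 5.39% (relative to non-mitochondrial UMIs) against 0.772%, 1.02%, 1.02% and 1.53%, the quantity that chose the barcodes. At matched depth complex I was at −0.05, −0.12, −0.15 and −1.79 and ATP synthase at −0.11, −0.12, −0.31 and −1.72. The 65 mitochondrial ribosomal proteins had −0.37, −0.33, −0.36 and −1.21, and 0.02, 0.00, −0.04 and −1.33 at matched depth. Abundant cytosolic transcripts such as Eef1a1, a translation elongation factor, followed the same pattern, with 29 of 30 lower in every library and medians of −0.71, −0.54, −0.68 and −1.74. The shortest quintile of all genes by length had −0.37, −0.33, −0.36 and −1.24, near the mitochondrial ribosomal proteins. The part of gene length in these lists was not tested.

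**Figure D4:**
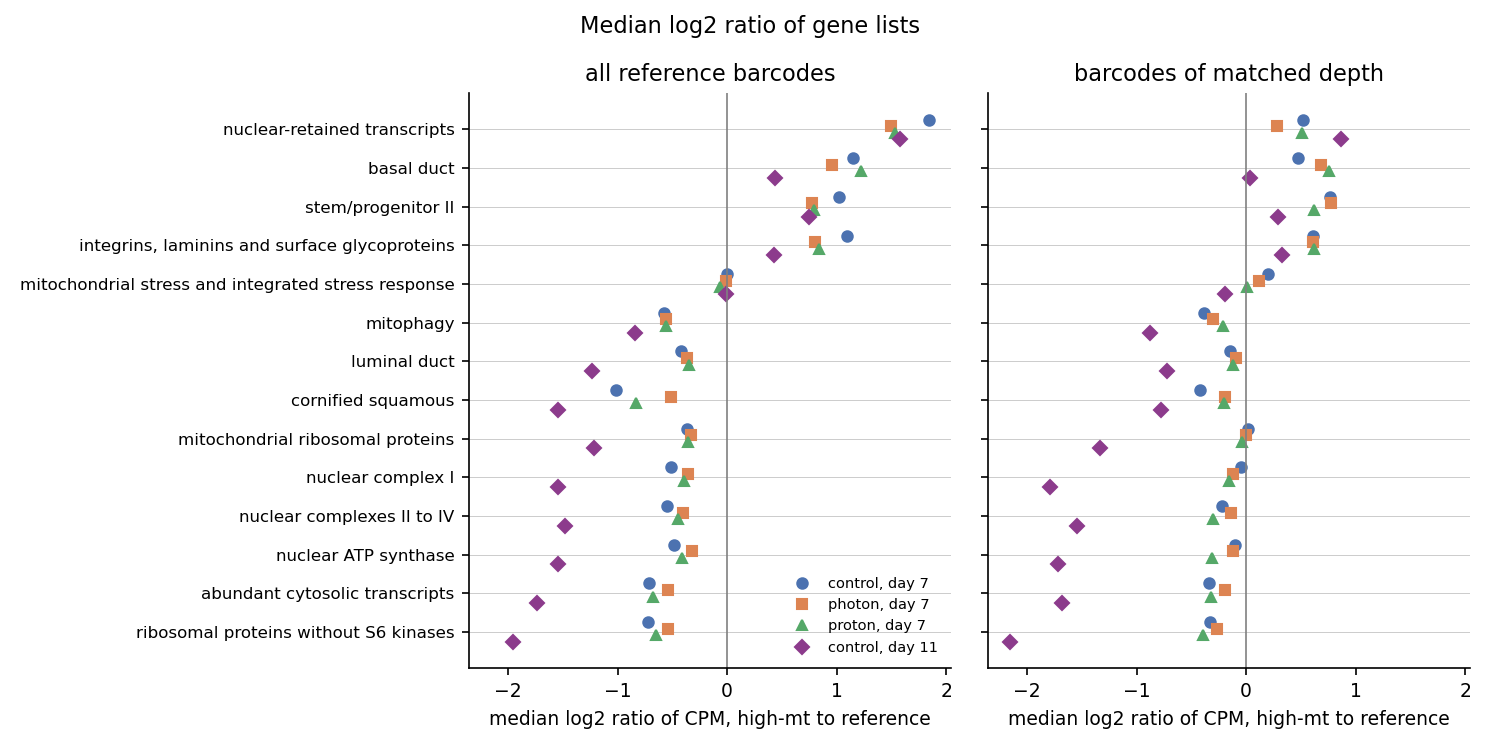
Median log2 ratio of high-mt to reference barcodes (x axis) for gene lists (rows), with 1 point per organoid library, for all reference barcodes (left) and for barcodes of matched depth (right). Day 11 points of ribosomal proteins (−1.96) and nuclear complex I (−1.55) lie well left of 0 and stay there at matched depth (−2.16 and −1.79), while their points of day 7 move toward 0.

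Regulators of mitochondrial biogenesis were few in number and mostly rare. Of 12 listed, 6 passed the filter, and no median is read from them because Ppargc1a and Esrrg were almost absent at day 7. Ppargc1a, the coactivator PGC-1α that drives mitochondrial biogenesis, had 3, 8 and 7 UMIs at day 7 in all high-mt barcodes and 4, 7 and 9 in the reference. At day 11 it had 1490 UMIs (385 CPM) against 3732 (108 CPM), a difference of 1.82 (1.75 to 1.92). Esrrg, a nuclear receptor that works with it, was likewise seen at day 11, at 1356 against 440 CPM, with 0 to 5 UMIs in each sum of day 7. Per barcode, both were near the reference at day 11, Ppargc1a at 0.379 against 0.365 and Esrrg at 1.34 against 1.49 UMIs. Nrf1, a transcription factor for nuclear respiratory genes, was at 1.39, 0.79, 0.67 and 1.43, and at 1.01, 0.50, 0.53 and 1.17 at matched depth. Tfam, which packages and transcribes mitochondrial DNA, was at −0.35, −0.22, −0.20 and −0.88, and the 11 genes of mitochondrial genome expression had medians of 0.25, 0.09, 0.29 and −0.22. Without Lrpprc, which passed the filter only through its high-mt sums, the other 10 had 0.15, 0.06, 0.05 and −0.55. At matched depth the list, then of 12 genes, was at 0.67, 0.32, 0.26 and 0.12, so its sign changed at day 11. All genes were there at 0.18, 0.17, 0.19 and 0.16.

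The rest of the mitochondrial and stress lists were mostly at or below the level of all genes. The 16 genes of the mitochondrial and integrated stress response had medians of 0.00, −0.01, −0.06 and −0.01, none of them 2-fold higher in any library. Without Lonp1, which passed only through its high-mt sums, the other 15 had −0.01, −0.01, −0.12 and −0.11. At matched depth the list of 16 was at 0.20, 0.11, 0.01 and −0.20. Mitophagy genes had −0.57, −0.56, −0.55 and −0.84 over 11 genes. Bnip3, a receptor for the removal of mitochondria, was 1 of the 7 genes lower in each library, at 59.6, 49.3, 41.9 and 18.1 CPM against 131, 107, 126 and 58.6, although near-identical copies make its counts uncertain. Genes of the tricarboxylic acid cycle had −0.09, −0.08, −0.11 and −0.33 over 20 genes, and those of fatty acid oxidation had −0.29, −0.19, −0.19 and −0.93 over 14. Between barcodes of matched depth the former were at 0.33, 0.18, 0.07 and −0.18 and the latter at 0.06, 0.04, 0.05 and −0.97, so the sign of both changed at day 7. Hypoxia and glycolysis genes had −0.57, −0.52, −0.57 and −1.02 over 22. Heat shock genes and chaperones had −0.07, −0.15, −0.36 and −0.59 over 13, and genes of apoptosis 0.00, −0.07, −0.16 and 0.45 over 13. Without Hsph1, which passed only through its high-mt sums, the heat shock list was at −0.07, −0.24, −0.39 and −0.63 over 12 genes. At matched depth it was at −0.36, −0.07, 0.01 and −0.29, so the proton library gave no direction there. Birc2, an inhibitor of apoptosis, passed only through its high-mt sums, and without it the apoptosis list was at −0.10, −0.13, −0.24 and 0.14 over 12 genes.

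Targets of p53, the transcription factor that answers DNA damage, gave no common direction over 20 genes, with 8 of 20 higher and 6 lower in every library, near the shares of all genes (44.3% and 26.9%), and medians of 0.33, 0.05, 0.05 and 0.24. Of these, 18 passed the filter on their reference sums alone, and without Eda2r and Psrc1 the medians were 0.26, 0.05, −0.04 and 0.24. Cdkn1a, its target that halts the cell cycle, was lower in each library. It stood at 234, 303, 303 and 78.6 CPM (110, 540, 477 and 304 UMIs) against 589, 668, 799 and 171, or −1.33, −1.14, −1.40 and −1.11. At matched depth it was at −0.84, −0.61, −0.80 and −1.16. Perp, a p53 target of cell junctions, was at −1.05, −0.69, −1.03 and −0.96.

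**Figure D5:**
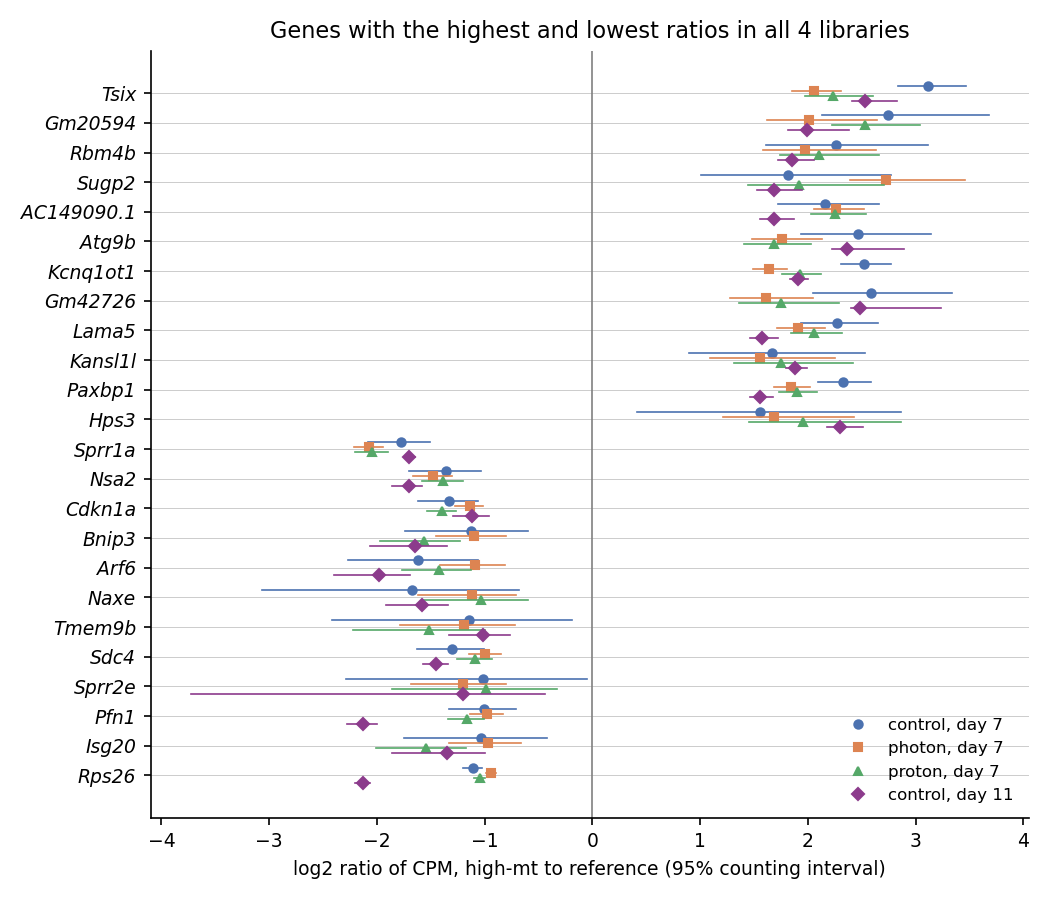
Log2 ratio of high-mt to reference barcodes (x axis) for the 12 genes ranked highest and the 12 ranked lowest over the 4 organoid libraries (rows), with 1 point per library and its 95% counting interval as a line. Tsix and Lama5 are above 1 and Sprr1a and Cdkn1a below −1 in each library.

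Among the 7 lower genes, ranked by the least extreme of their 4 ratios, the first was Sprr1a, a small proline-rich protein of the cornified envelope. It was at 219, 278, 237 and 778 CPM against 755, 1173, 980 and 2528, or −1.78 (−2.08 to −1.50), −2.07 (−2.21 to −1.95), −2.04 (−2.20 to −1.90) and −1.70 (−1.75 to −1.65). At matched depth it was at −0.44, −0.81, 0.05 and −1.30, so the sign did not hold in the proton library. Nsa2, a ribosome assembly factor with similar copies in the genome, was at −1.36, −1.48, −1.39 and −1.71, and at −0.51, −0.59, −0.59 and −1.67 at matched depth. Arf6, a small GTPase of membrane traffic, was at −1.61, −1.09, −1.42 and −1.98, and at −0.70, −0.42, −0.04 and −1.44 at matched depth. Naxe, which repairs damaged nicotinamide cofactors, and Tmem9b completed the 7 with Cdkn1a and Bnip3. The next genes by the same ranking, Sdc4, Sprr2e, Pfn1, Isg20 and Rps26, were lower in all 4 libraries but not 2-fold in each.

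Basal duct markers split, while luminal duct and cornified squamous markers were lower. Of the 10 basal duct markers, 6 were higher and 4 lower in every library, against 44.3% and 26.9% of all genes. Higher were Dst, an anchor of hemidesmosomes, at 2.07, 1.82, 1.90 and 0.98, Trp63, the p63 transcription factor of basal cells, at 1.66, 1.32, 1.65 and 0.75, the collagen gene Col17a1 at 1.75, 1.5, 1.64 and 0.43 and the integrin gene Itgb4 at 1.74, 1.51, 1.70 and 0.66. The keratin genes were lower: Krt14 was at 3627, 4070, 3870 and 493 CPM against 5187, 4972, 5121 and 1678, and Krt5 was at −0.58, −0.53, −0.63 and −1.88. Summed, the basal markers took 0.987%, 1.08%, 1.06% and 0.364% of UMIs against 1.10%, 1.16%, 1.16% and 0.680%. Luminal duct markers were lower in every library in 11 of 12, against 26.9% of all genes, with medians of −0.42, −0.37, −0.34 and −1.23. The shortest quintile of all genes by length had like medians of −0.37, −0.33, −0.36 and −1.24, and the part of gene length in the marker values was not tested. Cornified squamous markers were lower in every library in 12 of 13, with −1.01, −0.51, −0.83 and −1.55. At matched depth the basal list was at 0.48, 0.68, 0.76 and 0.04, the luminal list at −0.15, −0.09, −0.12 and −0.72 and the cornified list at −0.42, −0.19, −0.21 and −0.78.

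Of the marker lists of the study's progenitor populations, the first was below and the second above the reference. The second list shares Trp63 and Itgb4 with the basal duct list, and the first shares Krt18 with the luminal duct list, so they are not separate results. Medians were −0.38, −0.47, −0.38 and −1.12 for 5 markers of stem/progenitor I, with Sox9 at −0.11, −0.50, −0.35 and −1.12 and Cd24a at −0.83, −0.76, −1.13 and −1.38. Stem/progenitor II markers had 1.02, 0.78, 0.79 and 0.75 over 5 genes. The longest quintile of all genes by length had 1.06, 0.84, 0.86 and 1.13, and the part of gene length in the marker values was not tested. Cd44, a hyaluronan receptor, was at 1.00, 0.78, 0.54 and 0.85, and Itgb1, an integrin subunit, was at 0.93, 0.62, 0.77 and −0.18. At matched depth the first list was at −0.02, −0.20, −0.12 and −1.24 and the second at 0.77, 0.78, 0.62 and 0.29. Integrin, laminin and surface glycoprotein genes had medians of 1.09, 0.80, 0.84 and 0.43 over 27 genes, with 18 higher in every library against 44.3% of all genes. Lama5, a laminin chain of basement membranes (2:179818166-179867712 in GRCm39), ranked first of them by the lowest of its 4 ratios, at 194, 168, 172 and 162 CPM against 39.3, 44.0, 40.7 and 53.6, and at 0.75, 0.91, 1.09 and 1.28 at matched depth.

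Genes of the G2 and M phases of the cell cycle had no common direction against the whole reference. Mki67, a marker of cycling cells, was at 170, 44.3, 66.7 and 12.9 CPM (80, 79, 105 and 50 UMIs) against 35.8, 9.24, 9.87 and 10.0, or 2.22 (1.87 to 2.62), 2.14 (1.79 to 2.73), 2.64 (2.32 to 3.19) and 0.33 (−0.09 to 0.79). The interval of day 11 held 0. Cenpf, a kinetochore protein, was at 2.59, 1.73, 2.22 and 0.00. Ube2c, which drives exit from mitosis, was at −0.07, −0.51, −0.20 and −2.24. Of the 11 measured genes of this list, 4, 2, 4 and 0 were at least 2-fold higher, against 25.7%, 17.3%, 19.5% and 22.3% of all genes, and the median was 0.45, −0.03, 0.20 and −0.73. Mki67 passed the filter only through its high-mt sums, as did Cenpe and Hmmr, and without these the list's median was 0.40, −0.18, 0.00 and −0.98. At matched depth Mki67 had 52, 52, 66 and 30 UMIs in high-mt barcodes against 18, 3, 5 and 0 in the reference, the last too few for a ratio. The list, then of 10 genes, had medians of 0.75, 0.40, 0.18 and 1.01 there, the last with Mki67, Top2a, Cenpe and Hmmr at 0 reference UMIs. Over the 3 libraries of day 7 alone, 762 genes were at least 2-fold higher and 7 lower. The leading genes there were Atp9b, Mki67, Dync2h1, Prkdc, Fat1 and Ptprm beside those already named, of which Mki67 and Prkdc passed the filter only through their high-mt sums. Fat1, a giant cadherin, was at 432, 373 and 313 CPM against 72.2, 83.8 and 73.9 at day 7, and at 858 against 347 at day 11.

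Of the 8 genes ranked highest at day 11, 5 (Tsix, Gm42726, Atg9b, Hps3 and Col4a4) were also higher by 1.51 or more in each library of day 7, and 3 non-coding gene models (1500015L24Rik, Gm35188 and Gm16093) had few or no UMIs at day 7. All of these 8 but Tsix passed the filter only through their high-mt sums, and at matched depth Gm42726 was at 0.55, 0.09 and 0.17 in the 3 libraries of day 7. The day 11 values at matched depth were 1.04 for 1500015L24Rik, 1.305 for Gm35188 and 1.18 for Gm16093. Tsix was there at 1.32, Atg9b at 1.34, Hps3 at 0.93, Col4a4 at 1.52 and Gm42726 at 2.26, the last from 1 reference UMI. 1500015L24Rik, a long non-coding RNA, had 964 UMIs in high-mt barcodes (249 CPM) and 1214 in the reference (35.1 CPM), a difference of 2.79 (2.70 to 2.95), against 0 UMIs in the high-mt barcodes of day 7 and 5, 1 and 2 in the reference. Gm35188 had 893 against 1228 UMIs, a difference of 2.66, and none at day 7. Col4a4, a basement membrane collagen, was at 2.29 from 500 UMIs and was also higher at day 7, at 2.87, 2.03 and 1.51 from 12, 35 and 20 UMIs. Lowest at day 11 were Sprr2f (12 against 1815 UMIs, −3.71), the histone gene Hist1h1b (3 against 618, −3.41, −6.81 to −2.97), Psca, a surface protein (37 against 3261, −3.18), Crct1 (2 against 344, −2.85, −7.32 to −2.40), the chemokine gene Cxcl3 (23 against 1610, −2.78) and the keratin gene Krt13 (48 against 3100, −2.76). In the 231 reference barcodes of matched depth, Sprr2f and Psca had 0 UMIs at day 11 against 12 and 33 in the high-mt barcodes, so the low values were not seen there. Across all genes, 384 were higher in the 3 libraries of day 7 and lower at day 11 and 152 the reverse, with none past 2-fold both ways.

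Clustering of high-mt and reference barcodes together, without mt- genes and Malat1, set most high-mt barcodes apart at day 11. Of 6 clusters, 1 held 3445 barcodes, of which 95.2% were high-mt. It took in 83.5% of the high-mt and 1.62% of the reference barcodes, and its median was 850 UMIs. Its leading genes were 1500015L24Rik, 5330438D12Rik, Gm35188 and other gene models, with Tsix among the first 10. The pro-acinar markers Clcn3, Chrm3 and Alcam were at least 2-fold higher in it, but none stood among the first 10 and it was left unnamed. High-mt barcodes made up 2.62 to 9.03% of the other 5, among them 8.61% of a G2/M and cycling-like and 5.61% of a cornified squamous-like cluster. At day 7 the separation was less complete. Of 7 clusters, 1 of 1546 barcodes was 75.4% high-mt and held 55.2%, 60.4% and 61.9% of the high-mt barcodes of the 3 libraries, with 9.46% of the reference. It was led by Fat1, Dst, Plec, Kcnq1ot1, Agrn, Thbs1, AC149090.1, Nav2, Prpf4b and Lama5, and 6 of 10 basal duct markers were at least 2-fold higher in it, but only Dst stood among the leading genes and it was left unnamed. Another of 862 barcodes, led by Lmo7 and Tsix, was 45.5% high-mt and held 20.3% of the high-mt barcodes. In the cornified squamous-like cluster of day 7, with 179 barcodes and a median of 8949 UMIs, 1.12% were high-mt. These clusters share genes with the comparison above and are no independent evidence of it.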

How the data were processed

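Droplet libraries (10x 3′) of 4 organoid groups, 1 library each, were used as the UMI counts per gene and barcode that the authors deposited; the tissue library was used only for its share. Per the submitters' processing notes the counts came from Cell Ranger 5 and mm10, the study's methods name GRCm39, and the file headers give version 3.0.1 (day 7) and 7.0.0 (day 11). Whether intronic reads and strand were used is not given in the sources used here. The gene lists of both days (31053 and 32285 genes) shared 30406 identifiers.

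Members and lists were chosen with earlier results of these data known. UMIs were summed per kind of barcode and library and divided by the non-mitochondrial UMIs; mt- genes and Malat1 were not tested, genes with a mean of 20 CPM or more over 8 sums were, a pseudocount of 1 CPM was added, and a 2-fold difference in each of the 4 libraries was counted. With 1 library per group no p-value was computed. Intervals are exact Poisson, binomial (Clopper-Pearson) or conditional binomial at 95%. Genes were named by rule: those with the 12 highest and 12 lowest values of the least extreme ratio over the 4 libraries, 8 and 8 over day 7 and 8 and 8 at day 11 (not all are printed), and examples from 44 lists. The ionocyte, myoepithelial, striated duct, pro-acinar, S phase, interferon, antioxidant, immediate early, endoplasmic reticulum and neuronal lists are summarised in the closing section.

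Clusters were found with scanpy 1.11.5 and leidenalg 0.10.2 (2000 variable genes, 30 components, 15 neighbours, resolution 0.8). A cluster was named from at least 3 markers 2-fold higher, 2 of them among its top 10 genes, the latter chosen after the clusters were seen. Scrublet marked 1, 0, 1 and 0 doublets, too few for the caller to have worked, so doublets were not removed. GENCODE lengths and coordinates (GRCm39) were matched by gene identifier for 99.8% of tested genes. TMM factors came from edgeR 4.0.16. The computation was tested on simulated counts. Alternatives were other denominators, pseudocounts, filters, factors, thresholds and references, thinning, and libraries left out.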

Additional observations from a re-analysis of the deposited data

Results flagged for a closer look

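Among lists of at least 3 measured genes, read against the median of all genes, and among the named genes, 2 lists and 2 genes were picked out because the log2 values of day 11 and of the 3 libraries of day 7 differed in sign, although for some of them the values give no direction. These differences between days were not tested, and day, animals, run and software cannot be told apart. Against the median of all genes, apoptosis genes stood at 0.24 at day 11 and at −0.33, −0.29 and −0.40 in the control, photon and proton libraries of day 7. Birc2 passed the filter only through its high-mt sums. Without it the list itself was at 0.14 at day 11 and at −0.10, −0.13 and −0.24 at day 7. All genes that passed on their reference sums alone were at 0.00 at day 11 and at 0.19, 0.11 and 0.09 at day 7. At matched depth the apoptosis list itself was at −0.25, 0.19 and −0.01 at day 7 and at 0.38 at day 11, with the median of all genes at 0.18, 0.17, 0.19 and 0.16, so the photon library was no longer below all genes. Targets of p53 stood at 0.03 and at 0.00, −0.17 and −0.18, so the control of day 7 gave no direction. The p53 list itself was, at matched depth, at 0.00, −0.14 and −0.20 and at 0.15, so the value of day 11 was not above that of all genes. The long non-coding RNA 1500015L24Rik was higher by 2.79 (log2) at day 11, and had 0 UMIs in the high-mt barcodes of day 7 against 5, 1 and 2 in the reference, too few for a ratio or a direction. Cxcl3, a chemokine that attracts neutrophils, was at −2.78 at day 11 and at 0.39, 0.54 and 0.66 at day 7, from 9, 119 and 63 UMIs. The interval of the control of day 7 was −0.76 to 1.40, which held 0, and at matched depth its value was −0.18 against 0.54 and 0.70 with photon and proton.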

How the results depend on the processing

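No paired analysis was possible because each group was 1 library. Of the main results, 54 values moved little and 32 moved by more than the spread or by over 1.5 times. Of the values for single lists and genes, 865 moved little, 165 moved by more and 17 changed sign. Where a cause is not plain from the setting, the cause was not tested. The 520 higher and 7 lower genes became 135 and 176 with median-of-ratios factors, 120 and 300 with TMM, 880 and 3 against all other barcodes, 241 and 3 after thinning to 500 UMIs, 305 and 4 with mean shares per barcode, 30 and 1 at matched depth, 806 and 3 without Malat1 in the denominator, and 1320 and 190 at 1.5-fold. Lower genes were 15 with all UMIs as denominator and 28 for an mt- share above 10%. Leaving out each library in turn gave 570 to 762 higher and 7 to 30 lower genes, the most lower genes without the photon library. The difference of the longest from the shortest quintile of genes by length, 1.55 on average, was 0.35 with no filter and 0.90 at matched depth. The shares of high-mt barcodes were 20.8%, 35.8% and 34.5% at day 7 for Malat1 of at least 1%. With at least 500 genes they were 8.66%, 7.12%, 7.48% and 22.3%, and above an mt- share of 10% they were 0.937%, 1.20%, 1.18% and 11.2%. Against all genes, signs changed for mitochondrial genome expression (0.29 with no filter, 0.13 above 10% and 0.17 at matched depth, from −0.15), apoptosis (0.054 with no filter), gene models over ribosomal RNA (−0.031 against all other barcodes and −0.094 at matched depth), interferon response (0.082 with no filter, 0.10 at matched depth), G2/M genes (0.048 and 0.41, the latter with Mki67, Top2a, Cenpe and Hmmr at 0 reference UMIs at day 11) and striated duct (0.035 with no filter). Mean ratios of single genes changed sign for 1500015L24Rik (−0.79 with a pseudocount of 0.1 CPM, −0.72 at matched depth), Sprr2f (0.50), Psca (0.90) and Krtdap (0.048) at matched depth, where these had 0, 0 and 1 reference UMIs at day 11, and Cxcl3 (0.13) after thinning. Members had 866 UMIs at the day 11 median, 1 UMI over all of them being 0.258 CPM, and genes below 20 CPM were not compared.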

Other observations

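Several marker lists gave few measured genes. Of 17 pro-acinar markers, 5 passed the filter, with medians of 1.08, 0.95, 1.01 and 1.18 in the control, photon and proton libraries of day 7 and the control of day 11. Slc12a2 passed only through its high-mt sums, and without it the medians were 0.87, 0.86, 0.94 and 1.25. The 5 pro-acinar genes had, at matched depth, 0.31, 0.20, 0.97 and 0.85, with all genes at 0.18, 0.17, 0.19 and 0.16, so the control and photon values of day 7 were near those of all genes. Chrm3, a muscarinic receptor of secretory cells, was at 322 CPM (1245 UMIs) against 106 CPM in the day 11 library and had 0, 4 and 4 UMIs in the high-mt barcodes of day 7. The 4 measured myoepithelial markers had −0.18, −0.16, −0.30 and −1.57, and the 4 markers of striated and granular duct had −0.78, −0.05, −0.23 and −0.84. At matched depth the myoepithelial list was at −0.06, 0.30, 0.17 and −2.19 and the striated and granular duct list at −0.53, 0.19, 0.06 and 0.47, so the sign of the latter held in the control of day 7 alone. No ionocyte marker passed the filter. Among other groups, 25 genes of protein folding in the endoplasmic reticulum had −0.27, −0.24, −0.21 and −1.11, and 21 antioxidant and iron storage genes had −0.37, −0.32, −0.45 and −1.02. Among barcodes of like depth the folding list was at 0.08, 0.21, 0.05 and −0.93, so its sign changed at day 7, and the antioxidant list was at −0.13, 0.07, −0.23 and −0.999. The 20 immediate early genes had 0.19, −0.15, −0.24 and −0.10, the 6 interferon response genes −0.08, −0.14, −0.11 and −1.14, and the 6 S phase genes 0.27, 0.25, 0.17 and 0.00. Without Hells, which passed only through its high-mt sums, the S phase genes were at 0.07, 0.21, 0.07 and −0.04. The interferon list, of 7 genes at matched depth, was there at 0.33, 0.26, 0.27 and 0.26, so its sign changed in all 4 libraries. The immediate early genes were there at 0.13, 0.02, −0.10 and −0.23 and the S phase genes at 0.09, 0.31, 0.30 and −0.21. The 1 measured neuronal marker was at 0.08, 0.00, −0.06 and 0.37. Of 3 gene models that overlap ribosomal RNA, all were higher in each library, against 44.3% of all genes, with medians of 1.05, 0.90, 0.86 and 1.48. At matched depth their medians were −0.24, −0.16, 0.02 and 0.72, so the direction did not hold in the control and photon libraries of day 7.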
